A study of Sus scrofa with 9 samples.

Results

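The genes described here are those of the interferon response as it could be read from 9 microarrays of pig esophagus: the interferons, their receptors, the factors that carry the signal, and the genes that the signal switches on. Members were taken by gene symbol (IFI, IFN, OAS, MX, IRF, ISG, GBP, STAT, PARP, HERC, SAMD9, RSAD2, USP18, TAP, DHX58, EIF2AK2, CMPK2, NLRC5, ZBP1 and TRIM families), with no threshold on measured values, and the probe set with the highest mean stood for each gene. Of 12217 genes tested, 66 were members. Key genes of the response were measured in 16 of 20 cases, and ISG15, IFI6 and IFNAR1 are among those not analysed here.

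Interferons are secreted when a cell senses foreign nucleic acid, and they bind receptors on the same cell and its neighbours. Receptor-bound kinases then activate STAT proteins, and STAT2 pairs with IRF9 in the factor that drives type I and type III interferon target genes, while type II interferon (IFNG) acts in part through IRF1. The targets include enzymes that degrade or block viral RNA, GTPases that trap viral particles, and the machinery that loads peptides for T cells, and many are also transcribed at a low tonic level without infection. The esophageal lining is a barrier epithelium in which this system is available to epithelial, stromal and immune cells alike.

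The arrays fell into 3 groups of 3, each array holding total RNA of a single sample. Esophageal submucosal glands (ESMG), which secrete mucus and fluid, and the squamous epithelium above them came from control pigs 37, 39 and 40, so each of these animals gave both tissues. Spheroids had been grown in vitro from ESMG of pigs labelled 1, 2 and 3, in growth factor reduced Matrigel under Advanced DMEM/F12 with B27, N2, 10 mM HEPES and 50 ng/ml recombinant human epidermal growth factor. The sources used here do not say whether pigs 1, 2 and 3 are related to the tissue donors, give no age, sex or breed, and name no interferon or virus in any group. Replicates were described as biological. Spheroid RNA was isolated with another kit than tissue RNA, so kit and culture cannot be told apart.

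Levels are deposited log2 RMA values, in which a difference of 1 is a 2-fold difference. Array medians over all probe sets were 6.84 to 6.90 in spheroids and 6.96 to 7.04 in the tissues. Lower quartiles were 5.36 to 5.44 and 5.51 to 5.65 in the same order. Medians over the 12217 tested genes were 7.39 to 7.44 and 7.38 to 7.42, so these overlapped. Precision is limited by the number of arrays. A gene was called when limma's moderated test across all 12217 genes gave a Benjamini-Hochberg adjusted p under 0.05 and the fold was at least 2. Of 13 gland epithelium markers, 11 were called higher in ESMG than in squamous tissue, beside 2.65% of all genes. None of 7 squamous markers was called lower in ESMG, whose mean over that list was 11.24 to 11.92 against 12.04 to 12.29 in squamous tissue. All 7 were lower in ESMG by sign, 6 of them without overlap, and 2 passed the adjusted p. Transcripts of these markers were thus present in the ESMG samples too, and their source was not tested. In the spheroids 11 of 12 fibroblast and matrix markers and 7 of 9 endothelial markers were called lower than in either tissue. Of all genes, 8.91% were called lower than in ESMG and 8.05% lower than in squamous tissue.

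No interferon response gene was called between ESMG and the squamous tissue of the same animals. Of the 66 members 0 passed limma's adjusted test and fold minimum, against 3.06% of all genes tested. At an unadjusted p under 0.05 there were 5 members, against 18.6% of all genes. The median log2 difference of the members was 0.04, beside -0.06 over all genes, and the extremes were -0.39 for OASL and 0.60 for IRF3. The levels of a second IRF3 probe set overlapped between these tissues. The smallest adjusted p belonged to IFN-ALPHA-9, at 0.073 with a difference of 0.57 and a fit interval (95%, not adjusted for the number of genes) of 0.20 to 0.93.

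The spheroids differed from both tissues in a set of antiviral effectors. Against ESMG, 8 members (12.1%) were called lower and 1 (1.52%) higher, while 8.91% and 7.99% of all genes were called lower and higher. The 8 were OASL, IFI44, OAS2, MX2, USP18, MX1, IFIT1 and OAS1, and the member called higher was IFNE. Against squamous tissue, 8 members (12.1%) were called lower and 1 higher, beside 8.05% and 8.61% of all genes. These were OASL, IFI44, USP18, OAS2, MX2, MX1, EIF2AK2 and OAS1, and again IFNE rose. Both comparisons use the same spheroid arrays, so the second is no independent repeat of the first. The share of members called, 13.6% in each, was close to that of all genes (16.9% and 16.7%), so the list as a whole was not marked by how many of its genes changed. The members' median log2 differences were -0.27 against ESMG and -0.12 against squamous tissue, and those of all genes 0.09 and 0.03.

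**Figure D1:**
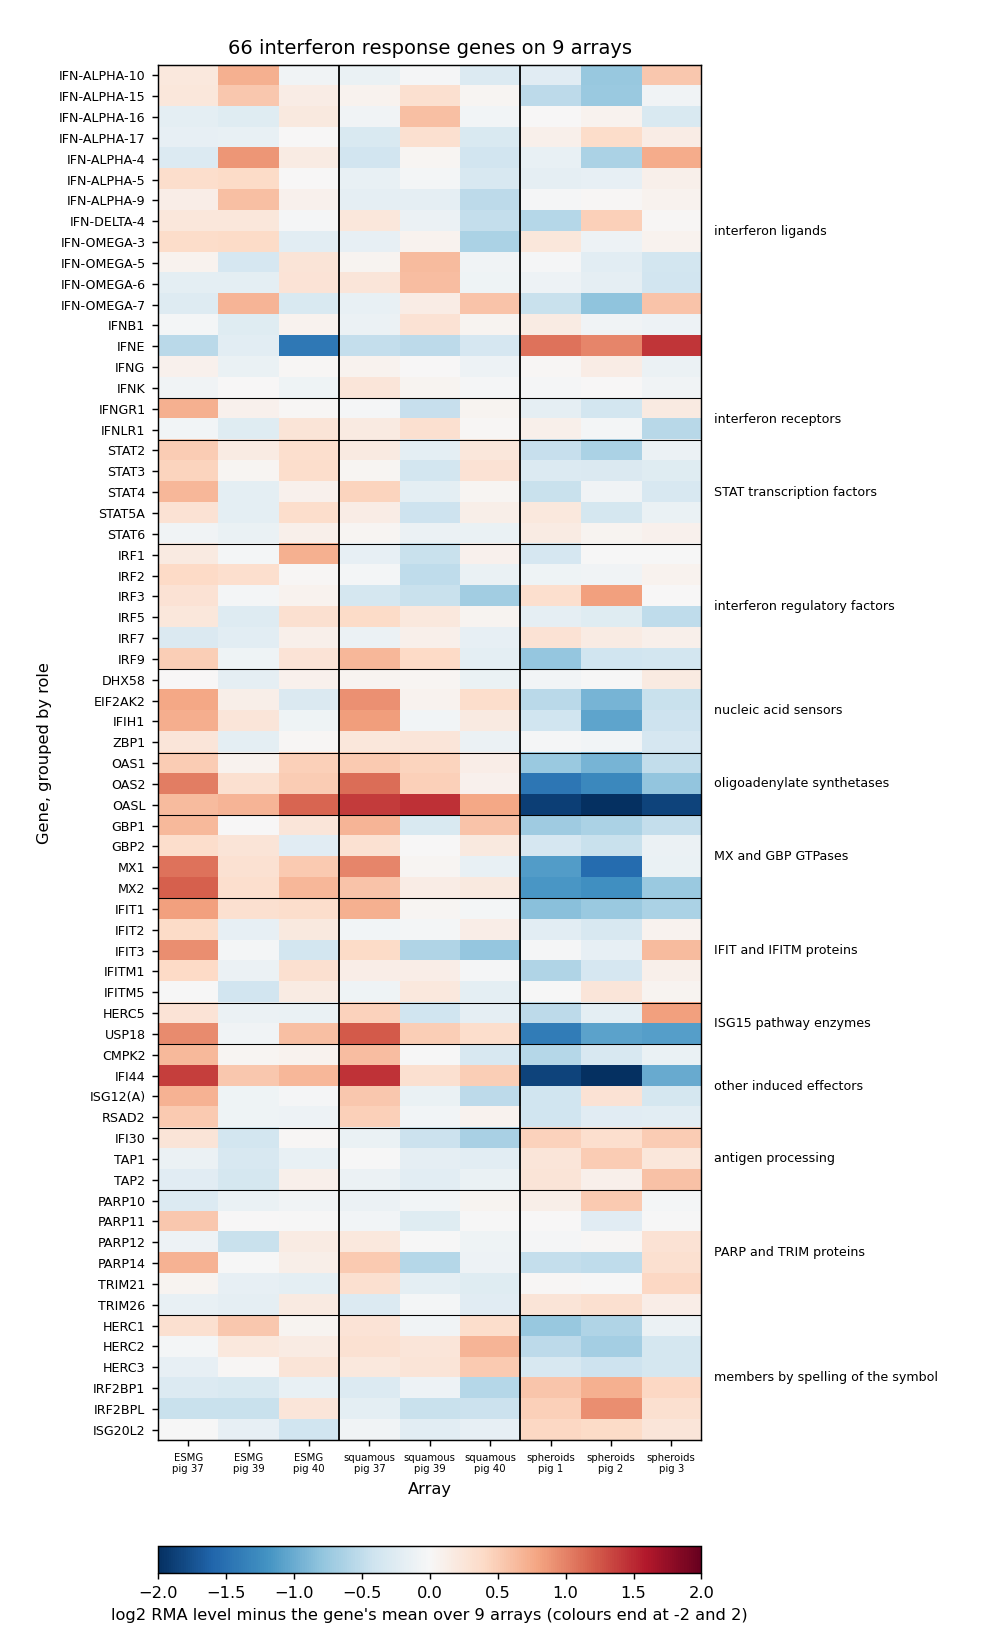
Each row is 1 of the 66 genes and each column 1 array; colour gives the log2 RMA level minus the gene's mean over 9 arrays, on a scale that ends at -2 and 2. OASL, IFI44, OAS2, MX2 and USP18 are blue in all 3 spheroid arrays and red in most tissue arrays, IFNE shows the opposite, and many effectors are reddest in both tissues of pig 37.

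The oligoadenylate synthetases include OASL, the member with the largest difference between spheroids and either tissue. Enzymes of this family make a short adenylate messenger on double-stranded RNA that activates RNase L, which cuts cellular and viral RNA. All 3 measured members (OAS1, OAS2 and OASL) were called lower in spheroids in both comparisons. Of all genes, 8.91% were called lower against ESMG and 8.05% against squamous tissue. OAS2 and OAS1 are neighbours in RefSeq's gene order of the pig reference assembly.

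OASL, a relative that lacks the messenger-making activity in humans and boosts RIG-I signalling, lay at 8.71, 8.77 and 9.24 in the ESMG of pigs 37, 39 and 40. In squamous tissue of the same pigs it lay at 9.49, 9.54 and 8.86, and in the spheroids of pigs 1, 2 and 3 at 6.20, 5.72 and 6.23. No spheroid array came near the lowest tissue array. The difference was -2.86 (SE 0.22; 7.25-fold lower, adjusted p = 2.13e-06) against ESMG and -3.25 (9.51-fold lower, adjusted p = 7.38e-07) against squamous tissue, the largest of any member in both.

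OAS2 lay at 10.09, 9.37 and 9.57 in ESMG, at 10.18, 9.54 and 9.14 in squamous tissue and at 7.61, 7.77 and 8.26 in spheroids. The spheroids were again below every tissue array, 3.46-fold below ESMG (log2 -1.79, SE 0.27, adjusted p = 0.00028) and 3.33-fold below squamous tissue (adjusted p = 0.000346). OAS1 had a smaller gap, with 7.47, 7.04 and 7.44 in ESMG, 7.48, 7.41 and 7.10 in squamous tissue and 6.22, 6.04 and 6.48 in spheroids. Its spheroid levels did not overlap those of the tissues, at 2.10-fold below ESMG (log2 -1.07, SE 0.18, adjusted p = 0.000461) and 2.12-fold below squamous tissue (adjusted p = 0.000423). With so small a margin over the fold minimum, OAS1 fell just under 2-fold against ESMG without the ESMG array of pig 37 (-0.99) or the spheroid array of pig 2 (-0.97), with adjusted p of 0.00249 and 0.00285. Against squamous tissue it did so without the spheroid array of pig 2 (-0.98).

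The MX proteins are dynamin-like GTPases that block the traffic of viral nucleocapsids, and the genes MX2 and MX1 are neighbours in RefSeq's gene order of the pig reference assembly. MX2 lay at 8.74, 7.88 and 8.20 in ESMG, at 8.11, 7.69 and 7.73 in squamous tissue and at 6.38, 6.32 and 6.80 in spheroids. It was lower on every spheroid array than on any tissue array, 3.42-fold against ESMG (log2 -1.77, SE 0.22, adjusted p = 6.94e-05) and 2.54-fold against squamous tissue (adjusted p = 0.000494).

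MX1 was more variable, with 9.19, 8.41 and 8.63 in ESMG, 9.09, 8.14 and 7.96 in squamous tissue and 6.99, 6.57 and 7.97 in spheroids. The spheroids of pig 3 reached the lowest squamous array, so those groups overlapped, while ESMG stayed apart from the spheroids. MX1 was 2.96-fold lower than in ESMG (log2 -1.57, SE 0.37, adjusted p = 0.00471). Against squamous tissue it was 2.33-fold lower (log2 -1.22, adjusted p = 0.0195), and that call was lost when the pig 37 squamous array (-0.87, adjusted p = 0.0857), the pig 1 spheroid array (-1.13, adjusted p = 0.0645) or the pig 2 spheroid array (-0.92, adjusted p = 0.0857) was left out. A second MX1 probe set read 8.97, 8.16 and 8.31 in ESMG and 7.06, 6.80 and 7.81 in spheroids, in the same order.

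Of the guanylate-binding proteins, GTPases that attack pathogen vacuoles, GBP1 and GBP2 were measured. GBP1 passed the adjusted p without reaching 2-fold, at -0.91 (adjusted p = 0.0111) against ESMG and -0.92 (adjusted p = 0.0103) against squamous tissue. GBP2 differed by -0.43 (adjusted p = 0.0675) and -0.47 (adjusted p = 0.0487).

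USP18 removes ISG15 from proteins and dampens signalling at the type I interferon receptor. Its levels were 7.98, 6.96 and 7.63 in ESMG, 8.26, 7.53 and 7.38 in squamous tissue and 5.63, 5.96 and 5.92 in spheroids. Every spheroid array was below every tissue array, by 3.21-fold against ESMG (log2 -1.68, SE 0.27, adjusted p = 0.000404) and 3.69-fold against squamous tissue (adjusted p = 0.000184). HERC5, the ligase that attaches ISG15, lay at 7.66, 7.28 and 7.25 in ESMG, 7.84, 6.99 and 7.21 in squamous tissue and 6.87, 7.19 and 8.20 in spheroids. Its groups overlapped, with spheroid differences of 0.03 and 0.07 and a spread within the spheroids wider than either.

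IFI44, an interferon-induced protein of the cytoplasm, lay at 9.57, 8.72 and 8.84 in ESMG, at 9.62, 8.50 and 8.67 in squamous tissue and at 6.33, 6.16 and 7.17 in spheroids. The highest spheroid array, that of pig 3, was still below the lowest tissue array. IFI44 was 5.62-fold lower than in ESMG (log2 -2.49, SE 0.34, adjusted p = 0.000123) and 5.19-fold lower than in squamous tissue (adjusted p = 0.000167).

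RSAD2 (viperin, which makes a chain-terminating nucleotide) lay at 6.79, 6.18 and 6.15 in ESMG, at 6.74, 6.20 and 6.33 in squamous tissue and at 5.86, 6.04 and 6.04 in spheroids. It was below all tissue arrays in spheroids by a small margin and did not pass the test, at -0.40 (adjusted p = 0.134) and -0.44 (adjusted p = 0.097). CMPK2, its neighbour in the gene order and a nucleotide kinase, differed by -0.59 (adjusted p = 0.0735) and -0.44 (adjusted p = 0.185).

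The IFIT genes, whose proteins bind viral RNA ends, gave unlike values, although IFIT2, IFIT3 and IFIT1 lie side by side in the gene order. IFIT1 lay at 7.40, 6.89 and 6.93 in ESMG, at 7.29, 6.62 and 6.53 in squamous tissue and at 5.74, 5.83 and 5.94 in spheroids. It was 2.36-fold lower in spheroids than in ESMG (log2 -1.24, SE 0.21, adjusted p = 0.00057). Against squamous tissue it was 1.97-fold lower (log2 -0.98, adjusted p = 0.00278) and therefore just short of a call, which it reached without the squamous array of pig 39 (-1.08) or 40 (-1.12) or the spheroid array of pig 3 (-1.03), and with array weights (-1.35, adjusted p = 1.07e-05).

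IFIT3 lay at 8.17, 7.20 and 6.88 in ESMG, at 7.63, 6.65 and 6.47 in squamous tissue and at 7.22, 7.07 and 7.87 in spheroids. The spheroids lay inside the ESMG range and overlapped squamous tissue, which the spheroids of pig 3 exceeded, with differences of -0.03 (95% interval -0.83 to 0.77, adjusted p = 0.953) and 0.47 (-0.33 to 1.27, adjusted p = 0.348). IFIT2 differed by -0.29 and -0.17 and IFITM1, a membrane protein that hinders viral entry, by -0.48 and -0.37, none of them past the test. Whether IFIT1 and IFIT3 differed from each other in their response was not tested.

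**Figure D2:**
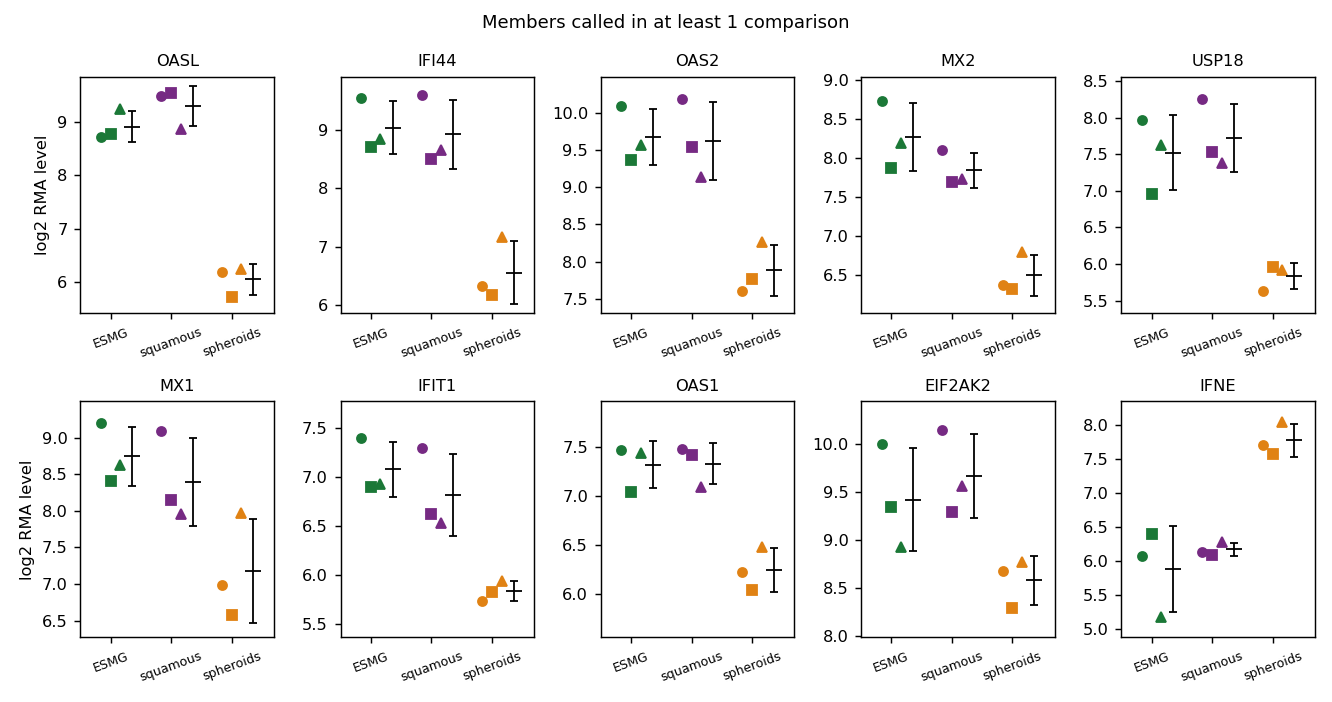
Log2 RMA levels of the 10 genes called in at least 1 comparison, with ESMG in green, squamous tissue in purple and spheroids in orange; circle, square and triangle are pigs 37, 39 and 40 for tissues and pigs 1, 2 and 3 for spheroids, and bars give the mean ± SD (n = 3). Of the 9 lower genes only MX1 has a spheroid array (7.97) at the level of a tissue array (7.96), and IFNE is higher on all spheroid arrays (7.58 to 8.04) than on any tissue array.

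Sensors of foreign nucleic acid were mixed. EIF2AK2 (PKR), a kinase that stops translation on double-stranded RNA, lay at 9.99, 9.34 and 8.93 in ESMG, at 10.14, 9.29 and 9.56 in squamous tissue and at 8.67, 8.29 and 8.77 in spheroids. The spheroids were lower than every tissue array. The difference from squamous tissue was 2.12-fold (log2 -1.09, adjusted p = 0.00785), and it was under 2-fold without the squamous array of pig 37 (-0.85) or the spheroid array of pig 2 (-0.94). The difference from ESMG passed the adjusted p but not the fold minimum (log2 -0.84, SE 0.28, 1.79-fold, adjusted p = 0.0287).

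IFIH1 (MDA5), a cytoplasmic RNA sensor, was likewise lower at under 2-fold, by -0.91 (adjusted p = 0.0177) and -0.94 (adjusted p = 0.0155). DHX58 (LGP2), its regulator, differed by 0.07 and 0.05 (adjusted p = 0.712 and 0.801), and ZBP1, a sensor of Z-form nucleic acid, by -0.16 and -0.25 (adjusted p = 0.482 and 0.262).

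Among the signalling factors no member was called in any comparison on the values as deposited. STAT2 lay at 9.23, 8.89 and 9.06 in ESMG, at 8.90, 8.52 and 8.95 in squamous tissue and at 8.25, 8.09 and 8.60 in spheroids. Spheroids were below ESMG without overlap and overlapped squamous tissue, with differences of -0.74 (adjusted p = 0.00501) and -0.48 (adjusted p = 0.0488). IRF9, its DNA-binding partner, lay at 9.52, 8.94 and 9.30 in ESMG, at 9.69, 9.42 and 8.83 in squamous tissue and at 8.25, 8.62 and 8.66 in spheroids. All spheroid arrays were lower than all tissue arrays, by -0.74 (adjusted p = 0.0208) and -0.80 (adjusted p = 0.0141). The latter was called without the squamous array of pig 40 (-1.04), after cyclic loess (-1.02) and with array weights (-1.23, adjusted p = 4.91e-05).

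STAT3, which carries interleukin-6 family signals as well, lay at 11.28, 10.88 and 11.19 in ESMG, at 10.89, 10.47 and 11.14 in squamous tissue and at 10.57, 10.55 and 10.60 in spheroids. The spheroid arrays lay close together, below ESMG (-0.55, adjusted p = 0.028) and inside the squamous range (-0.26, adjusted p = 0.292). A second STAT3 probe set read 10.21, 9.86 and 10.03 in ESMG, 9.75, 9.31 and 9.99 in squamous tissue and 9.25, 8.98 and 9.55 in spheroids. There the spheroid arrays lay further apart, and those of pigs 1 and 2 were below every squamous array. STAT4, a lymphocyte STAT, was under the array's lower quartile on all 9 arrays, and STAT5A and STAT6 differed by -0.24 to 0.17, with a lowest adjusted p of 0.333.

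IRF1, the main type II target among the regulatory factors, lay at 7.83, 7.61 and 8.36 in ESMG, at 7.48, 7.20 and 7.74 in squamous tissue and at 7.30, 7.64 and 7.64 in spheroids. The groups overlapped, with differences of -0.41 (adjusted p = 0.144) and 0.05 (adjusted p = 0.879). IRF7, the amplifier of type I interferon production, lay at 6.77, 6.85 and 7.16 in ESMG, at 6.93, 7.16 and 6.89 in squamous tissue and at 7.35, 7.23 and 7.16 in spheroids. Spheroids overlapped both tissues at their highest arrays, at 0.32 (adjusted p = 0.11) and 0.25 (adjusted p = 0.209). IRF3, which starts interferon transcription after sensing, was higher in spheroids than in squamous tissue (0.88, adjusted p = 0.00376) and not past the test against ESMG (0.28, adjusted p = 0.287). The former was called with equal array medians and without the spheroid array of pig 3. A second IRF3 probe set read 8.02, 8.06 and 8.25 in ESMG, 7.99, 7.53 and 8.12 in squamous tissue and 8.50, 8.66 and 8.41 in spheroids. There every spheroid array was above every tissue array, while the probe set used overlapped between spheroids and ESMG.

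The 2 receptor chains measured showed no difference past the test. IFNGR1, the ligand-binding chain for type II interferon, lay at 10.17, 9.54 and 9.48 in ESMG, at 9.44, 8.99 and 9.51 in squamous tissue and at 9.27, 9.09 and 9.63 in spheroids. IFNLR1, the chain that gives epithelium its response to type III interferon, lay at 6.72, 6.53 and 7.02 in ESMG, at 6.96, 7.08 and 6.79 in squamous tissue and at 6.87, 6.73 and 6.22 in spheroids. All 3 groups overlapped for both genes. IFNGR1 differed by -0.40 (95% interval -0.88 to 0.083) and 0.02 (-0.46 to 0.50), and IFNLR1 by -0.15 (-0.57 to 0.27) and -0.34 (-0.76 to 0.082).

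**Figure D3:**
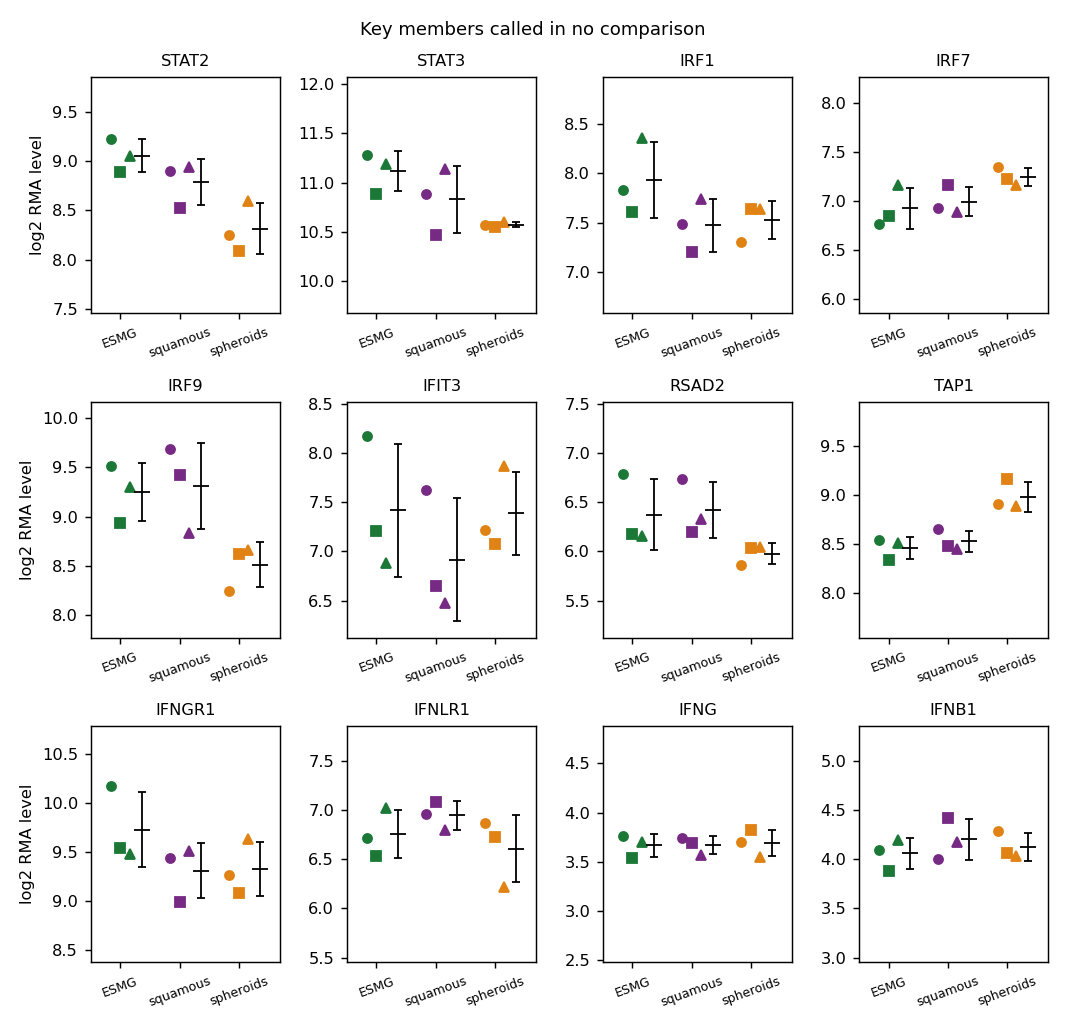
Log2 RMA levels of the 12 key genes called in no comparison, drawn with the colours, symbols and mean ± SD (n = 3) of the plot of called genes; each axis spans the same or a similar number of log2 units around the gene's own levels. STAT2 and IRF9 are lower in spheroids and TAP1 higher, each by under 2-fold, and IFNG and IFNB1 stay between 3.54 and 4.42 on all 9 arrays.

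The 16 ligands divided into IFNE and the rest. IFNE encodes interferon epsilon, a type I interferon known from epithelium of the female reproductive tract, where it is made without infection. Its levels were 6.07, 6.40 and 5.18 in ESMG, 6.14, 6.09 and 6.28 in squamous tissue and 7.70, 7.58 and 8.04 in spheroids. Spheroids lay above every tissue array, 3.71-fold above ESMG (log2 1.89, SE 0.26, adjusted p = 0.000134) and 3.04-fold above squamous tissue (log2 1.61, adjusted p = 0.000427). IFNE kept its call without any single array and under each other setting tried.

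No other ligand was called. IFNB1, the first type I interferon made after infection, lay between 3.88 and 4.42 on all arrays, and IFNG, the type II interferon of lymphocytes, between 3.54 and 3.82. Both, and IFN-OMEGA-3 and IFN-OMEGA-7, were under the lower quartile on all 9 arrays, where RMA compresses differences, so a difference there may not have been detectable. Of the interferon alpha genes only IFN-ALPHA-15 passed the adjusted p, lower in spheroids by 0.75 (adjusted p = 0.00637) and 0.60 (adjusted p = 0.0226) on the log2 scale. Copies within the alpha, delta and omega subfamilies closely resemble each other, so probes may bind more than the named copy, and their single values are uncertain.

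The 3 antigen-processing members had higher levels in spheroids, and 2 passed the adjusted p against ESMG and 3 against squamous tissue. Of all genes, 23.9% and 23.6% passed it in that direction. TAP1, a subunit of the pump that carries peptides to class I molecules, lay at 8.55, 8.34 and 8.51 in ESMG, at 8.65, 8.49 and 8.45 in squamous tissue and at 8.91, 9.16 and 8.89 in spheroids. Spheroids were higher than all tissue arrays, at under 2-fold (0.52, SE 0.14, adjusted p = 0.00976, and 0.45, adjusted p = 0.0201); the 2 probe sets of TAP1 held the same values. TAP2, its partner, rose by 0.47 (adjusted p = 0.0387) and 0.46 (adjusted p = 0.0433). IFI30, a lysosomal thiol reductase that prepares antigen for class II, rose against squamous tissue (0.84, adjusted p = 0.00327) and differed by 0.47 (adjusted p = 0.0626) from ESMG.

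Of the 6 PARP and TRIM members none was called. TRIM26 passed the adjusted p against squamous tissue (0.42, adjusted p = 0.0369). Another 6 members met the rule by the spelling of their symbol and are not classical interferon-induced genes. HERC1, HERC2 and HERC3, large ubiquitin ligases, were lower (-0.80, -0.63 and -0.40 against ESMG), and IRF2BP1, IRF2BPL and ISG20L2 were higher (0.80, 0.80 and 0.54). All 6 passed the adjusted p in both spheroid comparisons and none reached 2-fold in either. Of all genes, 23.9% passed it higher and 17.6% lower against ESMG, and 23.6% and 17.4% against squamous tissue.

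At the adjusted p alone, 18 members were lower and 6 higher in spheroids than in ESMG, where 17.6% and 23.9% of all genes were. Against squamous tissue 19 were lower and 9 higher, beside 17.4% and 23.6% of all genes. All spheroid arrays were below all 6 tissue arrays for 16 members (24.2%; 15.9% of all genes) and above them for 6 (9.09%; 23% of all genes). These counts are a description, and the list was not tested as a whole.

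**Figure D4:**
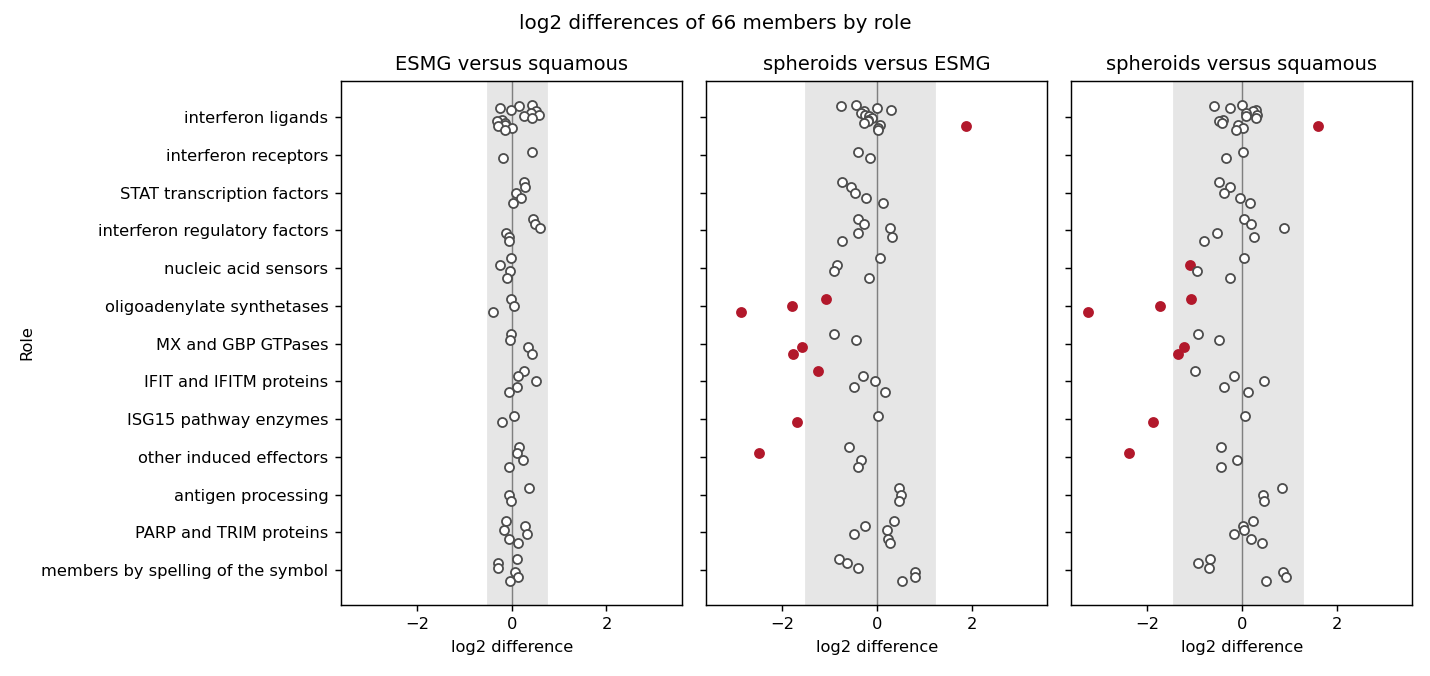
Log2 differences of the 66 genes by role in the 3 comparisons (positive: higher in the group named first); red points were called, and the grey band spans the 5th to 95th percentile of all 12217 genes. The red points below 0 are oligoadenylate synthetases, MX genes, USP18, IFI44, IFIT1 and EIF2AK2, and the single red point above 0 is IFNE.

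Pathway genes outside the symbol rule were taken from 5 lists, and none was called between ESMG and squamous tissue, where 3.06% of all genes were. In the spheroid comparisons 16.9% of all genes were called against ESMG and 16.7% against squamous tissue. The shares were 14.3% of the signalling and feedback list and 15% of the sensing and induction list in each. Of 7 measured genes of signalling and feedback, 1 was called higher in spheroids in each comparison (CRKL, a signalling adaptor, by 1.36 and 1.03). Of 20 sensing and induction genes, 2 were called higher and 1 lower in each. IRAK1, a kinase below Toll-like receptors, differed by 1.47 and 1.34, and RELA, the NF-kappaB subunit, by 1.19 and 1.06. TLR7, the endosomal RNA receptor, was called lower against ESMG (-1.10) and TRAF6, a ubiquitin ligase of the same pathway, against squamous tissue (-1.41). TRAF6 fell just short of the fold minimum against ESMG (1.999-fold lower, adjusted p = 0.000445). TLR7 differed by -0.56 (adjusted p = 0.102) from squamous tissue.

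Of 26 further interferon-stimulated effectors, 2 were called higher and 4 lower against ESMG, and 4 in each direction against squamous tissue. Called in either direction were 23.1% and 30.8% of them, beside 16.9% and 16.7% of all genes. The largest falls were in the complement genes C1S (-4.53 and -3.70) and SERPING1 (-3.30 and -2.94). Those called higher, named after their values had been seen, were LGALS9 (1.08 and 2.15) and MOV10 (1.14 and 1.41) in both comparisons. TDRD7 (1.34) and SP110 (1.15) were called higher against squamous tissue only. Of 13 genes of antigen processing, 1 was called higher in each spheroid comparison, and 3 were called lower against ESMG and 2 against squamous tissue. Called in either direction were 30.8% and 23.1% of them. SLA-DRA, a class II chain, had log2 differences of -5.13 against ESMG and -4.90 against squamous tissue. CTSS, a lysosomal protease of the class II route, differed by -1.98 and -1.15. TAPBP, the class I peptide-loading factor tapasin, was the gene called higher (1.14 and 1.42). Other genes of the list, named after their values had been seen, were mixed against ESMG. B2M, the class I light chain, differed by -0.70 (adjusted p = 0.00883) and ERAP2, a peptide-trimming enzyme, by -1.02 (adjusted p = 0.00505). PSME1 differed by 0.64 (adjusted p = 0.00217), and ERAP1 and PSME2 by 0.07 and 0.06. By sign alone, 5 of the 13 genes were higher and 8 lower than in ESMG. Of 11 chemokine and metabolism genes, 0 were called higher and 2 lower against ESMG, and 3 higher and 3 lower against squamous tissue, with median differences of 0.44 and 0.31. Called in either direction were 18.2% and 54.5% of them. CXCL9, a chemokine that draws T cells, had log2 differences of -2.59 and -2.12, and CXCL10 of -1.72 and -1.54. CXCL11 of the same list, named after its values had been seen, went the other way without a call. It differed by 1.10 (adjusted p = 0.14) and 1.39 (adjusted p = 0.067). Those higher than in squamous tissue were CCL2, a monocyte chemokine (2.08), and, named after their values had been seen, the death receptor FAS (1.49) and the tryptophan-degrading enzyme IDO1 (1.33). CXCL9 lay at 8.29, 5.88 and 6.34 in ESMG and at 4.17, 4.11 and 4.46 in spheroids.

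Several marker lists of other cell types, and that of squamous epithelium, were also lower in spheroids. Of 22 leukocyte markers, 10 were called lower and 0 higher in spheroids against ESMG, and 6 lower and 2 higher against squamous tissue. Those called lower were 45.5% and 27.3% of the markers, beside 8.91% and 8.05% of all genes. Their mean level was 6.96 to 7.92 in ESMG, 6.69 to 7.18 in squamous tissue and 6.26 to 6.37 in spheroids. CD53, a leukocyte tetraspanin, differed by -3.29 and MPEG1, a macrophage pore protein, by -3.06 against ESMG on the log2 scale. AIF1 of the same list, named after its values had been seen, went the other way. It differed by 0.82 (adjusted p = 0.0321) against ESMG and by 1.27 (adjusted p = 0.00312, called higher) against squamous tissue. The mean over 12 fibroblast and matrix markers was 10.87 to 11.35 in the tissues and 6.86 to 7.50 in spheroids, and that over 9 endothelial markers 8.01 to 8.31 and 6.54 to 6.69. The mean over 7 squamous epithelium markers was 11.24 to 12.29 in the tissues and 9.36 to 9.59 in spheroids. Of these 7, 5 were called lower against ESMG and 6 against squamous tissue. Of 13 gland epithelium markers, 6 were called lower and 2 higher against ESMG, and 3 lower and 8 higher against squamous tissue. The part of any of these cell types in the lower effector levels was not tested. In bulk RNA, fewer cells of a type and less RNA per cell cannot be told apart.

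Levels were also set side by side between the animals that gave both tissues, and no member differed after adjustment. Across the 6 tissue arrays, a limma F test on the pig within tissue, run after the data had been seen, gave an unadjusted p under 0.05 for 20 of 66 members (30.3%), against 4.95% of all genes. After adjustment over all genes 0 members passed, against 0.0982% of all genes, and the smallest adjusted p of a member was 0.19. Pig 37 was the highest of the 3 in both tissues for 26 members (39.4%; 9.65% of all genes), pig 39 for 5 and pig 40 for 3 (7.84% and 10.8% of all genes). Of the 20 members, 16 had pig 37 highest in both tissues.

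IFIT3 had the smallest p of the limma F test (unadjusted, 0.000506), with 8.17 and 7.63 in the ESMG and squamous tissue of pig 37 and no other tissue array above 7.20. IFI44 came next and stood at 9.57 and 9.62 in pig 37 and at most at 8.84 in the others. MX1, ISG12(A), a mitochondrial interferon-induced protein, and PARP14, a mono-ADP-ribosyltransferase, followed, and the 3 were again highest in pig 37 in both tissues; ISG12(A) and PARP14 were singled out after their values had been seen. Pig 37 also had the highest leukocyte marker mean in ESMG (7.92, against 6.96 and 7.32) and in squamous tissue (7.18, against 6.96 and 6.69), and the part of these cells in the difference was not tested.

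**Figure D5:**
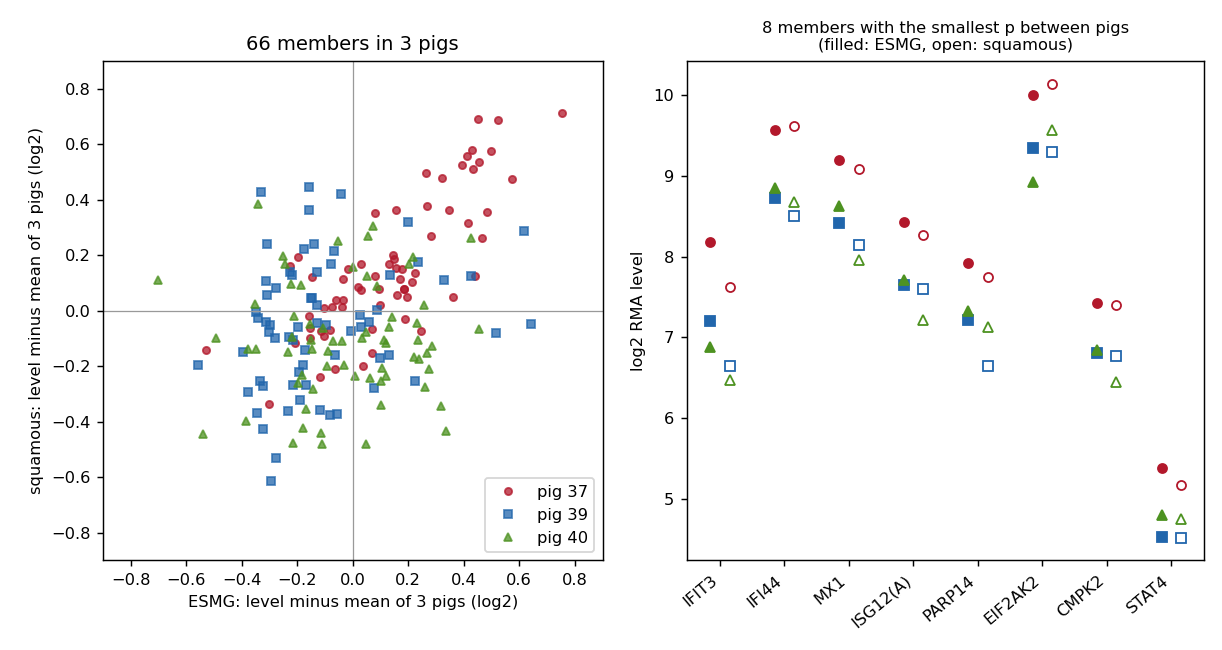
Left, each point is 1 of the 66 genes in 1 pig, placed by its log2 level in ESMG (x) and squamous tissue (y) minus the mean of the 3 pigs in that tissue; right, log2 RMA levels of the 8 genes with the smallest p between pigs, filled for ESMG and open for squamous tissue. Points of pig 37 (red circles) reach furthest to the upper right, and the circles are the top symbols in each tissue for all 8 genes.

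Without both arrays of pig 37, a setting added after the data had been seen, 7 members were called lower against ESMG and 6 against squamous tissue. OASL, IFI44, OAS2, MX2 and USP18 were among them in both comparisons. Spheroids varied too: those of pig 3 were the highest of the 3 for 37 members (56.1%; 35.8% of all genes), and for 8 of the 9 members called lower in either comparison. Leaving out the spheroid array of pig 2 left 5 members lower against squamous tissue, namely OASL, IFI44, OAS2, MX2 and USP18.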

How the data were processed

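The authors' deposited values are log2 RMA levels from Affymetrix PorGene 1.0 ST arrays, made at gene level in Expression Console, per the labels. The sources used here name neither its version nor a genome build. Transcriptome Analysis Console 3.0 is also named, per the submitters' processing notes. RMA subtracts background and aligns array distributions, so a change shared by most genes can be removed. The deposited array medians over all probe sets were still lower in the spheroids than in the tissues. Each of the 9 value columns matched 1 sample (0 unmatched).

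Of 27558 probe sets, 13157 had 1 gene symbol, 523 several and 13878 none in the platform annotation. Symbols were updated by gene number through the RefSeq table of the pig reference assembly (12841 matched). The probe set with the highest mean over 9 arrays stood for a gene. The 66 members came from 76 probe sets, and 6 probe sets with several symbols were left out.

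limma 3.58.1 (lmFit, eBayes; R 4.3.3) fitted 1 mean per group over the 9 arrays and 12217 genes, with 6 residual degrees of freedom, and was first tested on simulated data. A call needed at least 2-fold and an adjusted p (two-sided, Benjamini-Hochberg over all genes) under 0.05. ESMG and squamous samples share pigs, per the labels. Deviations of same-pig samples over all genes correlated at 0.42, -0.15 and -0.17 for pigs 37, 39 and 40, and over members at 0.78, 0.23 and 0.02. Fits with the pig as a block were alternatives.

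Named genes are all called members, 20 key genes where measured (16), the highest and lowest of a role, and the 2 largest calls of each other list; others are named as part of a described group. The members, the 12 lists (242 symbols, 157 measured) and these rules were chosen with earlier results of these data known. No sequence is shown.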

Additional observations from a re-analysis of the deposited data

How the results depend on the processing

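Of the settings tried, OASL, IFI44, OAS2, MX2, USP18 and IFNE kept their calls in both spheroid comparisons under each. Pairing changed no call of a member: with a fixed replicate block (pig) on the 6 tissue arrays 397 genes were called between ESMG and squamous tissue, with a random block 335 and without a block 374, and 0 members each time. At adjusted p alone the genes called were 739 for ESMG versus squamous tissue, 5069 for spheroids versus ESMG (6 members higher, 18 lower) and 5002 for spheroids versus squamous tissue (9 higher, 19 lower). Without single arrays the first count ran from 276 to 569 (569 without the ESMG array of pig 40). Members higher ran from 1 to 2 against ESMG (2 without ESMG of pig 40) and from 1 to 3 against squamous tissue (2 without squamous tissue of pig 37, 3 without spheroids of pig 3), and members lower against squamous tissue from 5 to 12 (12 without squamous tissue of pig 39). Without both arrays of pig 37, 2 members were higher against squamous tissue.

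Setting array medians equal moved the median difference of all genes by 0.11 and 0.13 in the spheroid comparisons. Against squamous tissue it gave 4 members higher and 6 lower, with a members' median of 0.0143, and it took OAS1 (-0.96 and -0.95) and EIF2AK2 (-0.96) under 2-fold. Quantile normalization took OAS1 to -0.98 against ESMG. Of all calls, 47.3% were higher in spheroids than in ESMG as deposited, 57.1% with equal medians and 34.4% after cyclic loess; against squamous tissue these were 51.7%, 62.2% and 41.4%.

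Some differences that were not called changed sign, most of them near 0; the exceptions were IFIT3 against squamous tissue (0.47 as deposited) and MX1 between ESMG and squamous tissue (0.35). Between ESMG and squamous tissue IFNG became 0.041 (quantile), 0.017 (equal medians) and 0.056 (cyclic loess), OAS1 0.0043 and 0.044 (equal medians, cyclic loess), RSAD2 0.023 (cyclic loess) and MX1 -0.0009 (array weights). For spheroids against ESMG, IFIT3 became 0.080 (equal medians) and 0.35 (without pig 37), IFNG -0.0052 (cyclic loess) and IFNLR1 0.13 (array weights). For spheroids against squamous tissue, IFNGR1 became -0.17, -0.18 and -0.12 (quantile, cyclic loess, array weights), IFNB1 0.052 and 0.18 (equal medians, array weights), IRF1 -0.11 and -0.15 (cyclic loess, array weights), IFIT3 -0.095 and IFNG -0.010 (array weights). Without single arrays, the ranges that crossed 0 between ESMG and squamous tissue were IFNG -0.051 to 0.063, IRF7 -0.18 to 0.019, IRF9 -0.30 to 0.13, OAS1 -0.13 to 0.12 and RSAD2 -0.25 to 0.11. Against ESMG they were IFIT3 -0.30 to 0.35, IFNB1 -0.023 to 0.14, IFNG -0.040 to 0.094 and IFNLR1 -0.28 to 0.045. Against squamous tissue they were IFNB1 -0.18 to 0.033, IFNG -0.041 to 0.093, IFNGR1 -0.14 to 0.14 and IRF1 -0.085 to 0.18. The cause of these shifts was not tested.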
